A study of Mus musculus with 4 samples.

Results

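Gas5 and 9 other long RNAs known as hosts of small nucleolar RNAs (snoRNAs) were followed in small RNA libraries of mouse embryonic stroma. The genes were taken by name (Gas5, Snhg1, Snhg3, Snhg4, Snhg5, Snhg6, Snhg8, Snhg12, Zfas1 and Epb41l4aos), and 9 of the 10 had a row among the 2976 genes of the table. Zfas1 was not analysed here. The genes were chosen by name with their TPM values in these libraries already known, that of Gas5 above all, so the levels below are descriptions without a test. The cells were Tbx18-expressing stroma from around the wolffian duct, the epithelial tube that gives off the ureteric bud, of CD1 embryos at stage E10.5, described as wild type. They carried Tbx18-Cre and CAG-tdTomato, so the red reporter marks cells in which Tbx18-driven Cre has been active, together with their descendants. All 4 libraries share this genotype, strain and stage and form 1 group. Whether they came from separate embryos, litters or pools is not stated, so spreads between libraries may be technical.

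A snoRNA host gene is transcribed as a long RNA whose introns carry snoRNAs. After splicing, each intron is trimmed to a stable snoRNA that joins proteins and guides the modification of ribosomal and other RNAs, and the exons leave as a spliced long RNA. Box C/D snoRNAs, named after their C and D sequence boxes, guide ribose methylation, and box H/ACA snoRNAs guide pseudouridylation. The spliced exon RNA of many hosts codes for no conserved protein and is short-lived because translation exposes it to nonsense-mediated decay. Gas5 was first isolated as a transcript that accumulates in growth-arrested cells, and its spliced RNA has been described as a decoy of the glucocorticoid receptor. A small RNA library can hold whole snoRNAs, their fragments and fragments of the spliced exons, and a value per gene does not say which of these was sequenced.

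In the annotation, Gas5 is a host of box C/D snoRNAs. It lies on chromosome 1 at 161034601 to 161038539 in the RefSeq annotation of GRCm38.p6, and GENCODE vM21 lists 9 snoRNAs within it on the plus strand, 60 to 84 nt long. Their sequences are shown because the gene model behind the Gas5 values, described further on, is longer than the merged GENCODE transcripts that lack a whole snoRNA. They are given 5′ to 3′ as GENCODE vM21 has them, in their order along the gene, with a C box core (TGATG within the first 25 bases) and a D box (CTGA within the last 25 bases) in capitals.
Gm26224: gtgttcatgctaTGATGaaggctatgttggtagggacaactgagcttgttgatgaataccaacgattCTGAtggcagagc
Gm22489: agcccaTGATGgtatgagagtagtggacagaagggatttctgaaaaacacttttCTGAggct
Gm22357: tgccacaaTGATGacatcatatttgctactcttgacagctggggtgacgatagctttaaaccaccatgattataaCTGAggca
Gm23212: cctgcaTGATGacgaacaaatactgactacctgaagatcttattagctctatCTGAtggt
Snord78: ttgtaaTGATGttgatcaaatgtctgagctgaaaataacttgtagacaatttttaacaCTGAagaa
Mir5117: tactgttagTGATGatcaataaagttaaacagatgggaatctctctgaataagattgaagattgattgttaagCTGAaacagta
Snord80: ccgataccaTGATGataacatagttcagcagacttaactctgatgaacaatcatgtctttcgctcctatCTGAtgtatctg
Snord47: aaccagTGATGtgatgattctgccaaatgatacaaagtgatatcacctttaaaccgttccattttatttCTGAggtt
Gm25789: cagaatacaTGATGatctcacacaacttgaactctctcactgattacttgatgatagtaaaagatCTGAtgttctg
Both boxes were found in 9 of 9, against 24.0% of the 1507 snoRNA entries of GENCODE vM21, which include H/ACA snoRNAs and pseudogene copies. Only the given strand was searched, and the match of letters is a description. The snoRNA that GENCODE names Mir5117 lies on chromosome 1 at 161037356 to 161037439, and RefSeq lists that name as a synonym of Gas5. The other 8 have RefSeq gene records of their own, and 0 of the 9 had a row. This was not particular to Gas5, since 0 rows of the whole table have the RefSeq biotype snoRNA.

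Gas5 stood far above every other snoRNA host (the plot of levels by library). It measured 5079, 4958, 7082 and 4245 TPM in libraries 1 to 4, where TPM is a read count per unit of gene length, with every library brought to a common sum. The mean was 5341 ± 1218 TPM (SD, n = 4). The highest library, library 3, was 1.67 times the lowest, library 4. Gas5 was steady beside the 2 rows next to it in order of mean level, both of them miRNA genes of Hox clusters. Mir10b, next above at 6974 ± 5258 TPM, was lower than Gas5 in 2 of 4 libraries, and Mir10a, next below at 3929 ± 2589 TPM, in 3 of 4 (SD, n = 4). In order of mean level Gas5 was the 2nd of 2976 rows, and it was 1st, 3rd, 2nd and 1st within libraries 1 to 4. In bulk RNA, more cells that contain a transcript cannot be told apart from more of it per cell.

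**Figure D1:**
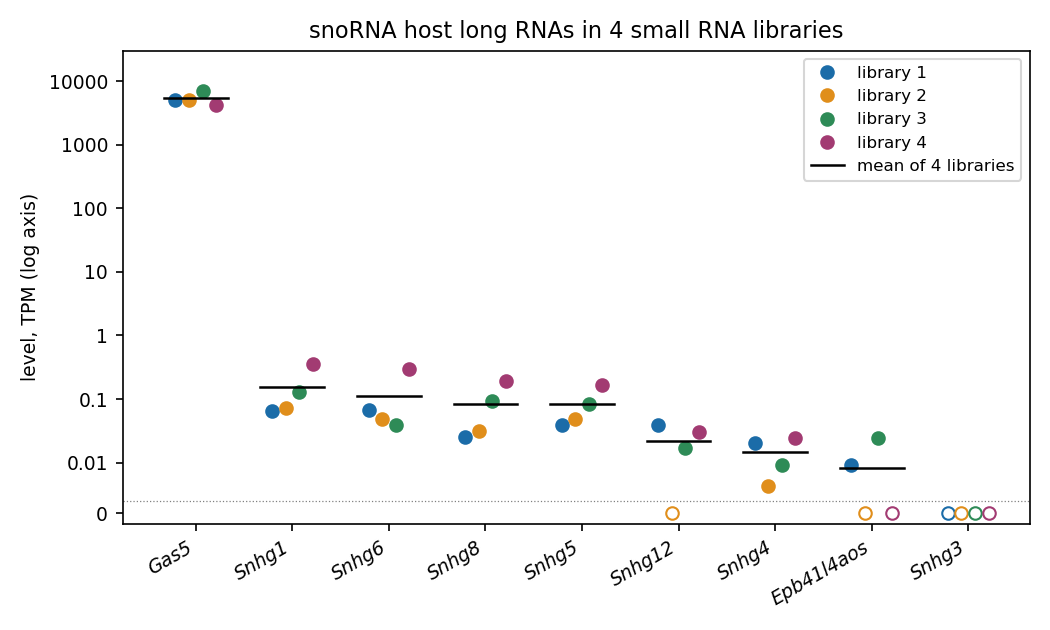
Level in TPM (log axis) of the 9 snoRNA host long RNAs with a row, in libraries 1 to 4 (coloured points), with the mean of 4 libraries as a bar; open points below the dotted line are listed at 0. Gas5 sits between 4245 and 7082 TPM, and every other value is 0.351 TPM or lower.

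The reads behind these levels could be recovered. Each library has a fixed worth of 1 read per base of gene length. Dividing the miRNA values by it, with their RefSeq lengths, gave whole reads within 0.01 for 100% of 1526 values above 0. With the same worth of a read, the length by which each long RNA had been divided was found as the smallest length that gave whole reads in all 4 libraries. For Gas5 that length was 2554 nt, and its next multiple is longer than the gene. Gas5 had received 3317500, 2602840, 3467523 and 1168679 reads in libraries 1 to 4. It took the most reads of all rows in each library, at 29.5, 17.6, 21.5 and 44.7 times the next row, A230103J11Rik (libraries 1 and 4) or Mir10b (the others).

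Gas5 therefore held a different place by reads than by TPM. It made up 10.3%, 6.87%, 9.96% and 18.2% of the summed TPM of the table in libraries 1 to 4, a mean of 11.3% ± 4.83 (SD, n = 4). Of the recovered reads of the table it took 75.8%, 68.2%, 75.7% and 84.3%, a mean of 76.0% ± 6.56 (SD, n = 4). These are shares of the table and not of whole libraries. The rows of the table hold 4.94%, 7.22%, 7.11% and 2.33% of the sum to which TPM is set in libraries 1 to 4. In each library Gas5 alone had more reads than all 643 miRNA genes together, with 3.76, 2.39, 3.54 and 7.99 Gas5 reads for each miRNA read. The difference between the scales is the division by length, since 2554 nt is long beside a miRNA hairpin. Library 4 had the highest Gas5 share on both scales and the lowest Gas5 level in TPM, and its miRNA genes had the fewest reads, 146255 against 883201 to 1087240 in the others.

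**Figure D2:**
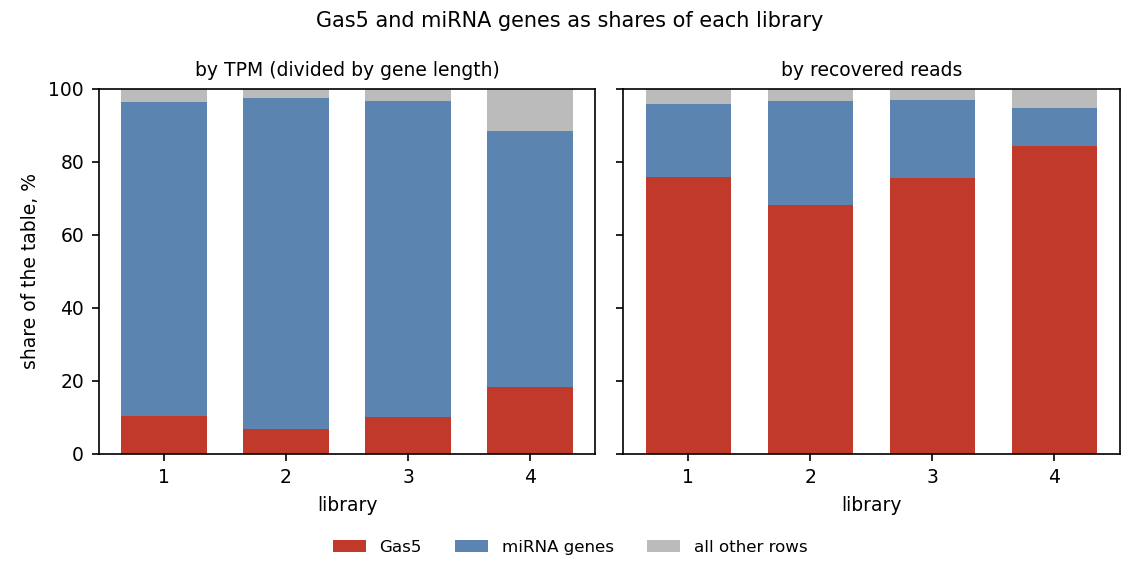
Share of the table taken by Gas5 (red), the miRNA genes (blue) and all other rows (grey) in each library, by TPM on the left and by recovered reads on the right. Gas5 takes 6.87% to 18.2% by TPM and 68.2% to 84.3% by reads. The shares are of the table, whose rows hold 2.33% to 7.22% of the sum to which TPM is set, and not of whole libraries.

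The length of 2554 nt was compared with the annotated Gas5 transcripts. GENCODE vM21 has 25 of them, from 346 to 2556 nt. The longest, classed as a retained-intron transcript, is 2556 nt long, 2 nt from the length found, and the next longest is 1614 nt. Its first exon runs for 2382 nt across introns that are spliced out of other transcripts. That exon contains in full the first 6 snoRNAs of the gene, Gm26224, Gm22489, Gm22357, Gm23212, Snord78 and Mir5117, while Snord80, Snord47 and Gm25789 fall in its introns. Together these 6 snoRNAs make up 435 nt, or 17.0%, of the transcript. The 9 Gas5 transcripts that contain no whole snoRNA cover 1330 nt when merged, and the longest of them has 793 nt, so none of these, alone or merged, reaches 2554 nt. The 2 lengths are close but not equal, so the model that was counted is not identified. The exons of the RefSeq transcripts of Gas5 were not used here. Where along the gene the reads lay was not tested.

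**Figure D3:**
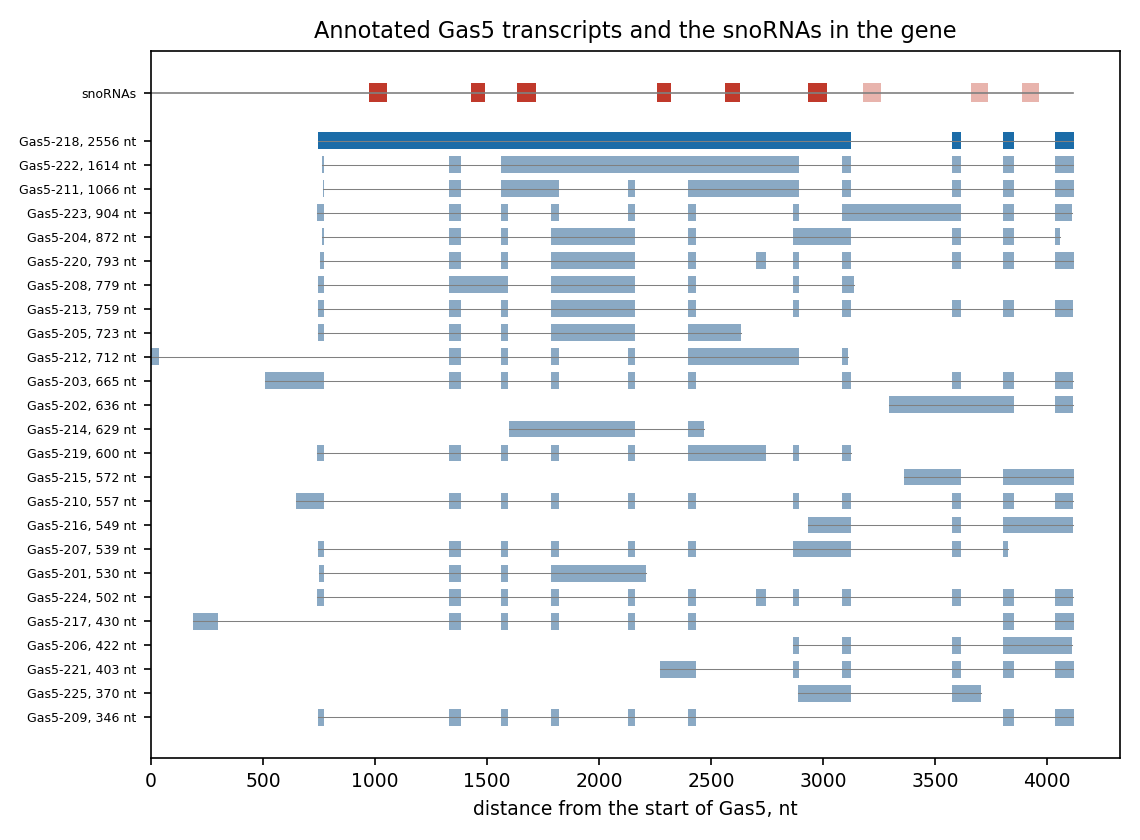
The 25 GENCODE vM21 transcripts of Gas5, as exons (boxes) against the distance in nt from the start of the gene, with the 9 snoRNAs above; the longest transcript, of 2556 nt, is in dark blue. The 6 snoRNAs in dark red lie within its first exon, and the 3 in light red do not.

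The 8 other hosts with a row had few reads. Of the 9 hosts with a row, 1, Gas5, reached 1 TPM in all 4 libraries, against 7.69% of all 2976 rows and 0.163% of the 1840 long noncoding RNA rows. The highest value of any of the other 8 was 0.351 TPM. At the smallest lengths found, the most reads that any of them had in a library was 18. Their summed level was 0.265, 0.203, 0.396 and 1.06 TPM in libraries 1 to 4, from 40, 27, 50 and 69 reads, with exact Poisson 95% intervals of 28.6 to 54.5, 17.8 to 39.3, 37.1 to 65.9 and 53.7 to 87.3 reads that cover counting error only. These reads and intervals hold at the smallest lengths found, with 186 reads in all, against 543 at the largest multiples of those lengths. Gas5 was 19190, 24461, 17888 and 4019 times the summed TPM of the other hosts. On the log2(TPM + 1) scale, which understates the distance of genes below 1 TPM, the sum lay at -11.83 ± 0.56 relative to Gas5 (SD, n = 4), below it in 4 of 4 libraries.

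Among the hosts of box C/D snoRNAs, Snhg1, on chromosome 19 at 8723487 to 8726326, carries 8 snoRNAs including Snord22. It measured 0.0657, 0.0715, 0.132 and 0.351 TPM in libraries 1 to 4, from 8, 7, 12 and 18 reads at a length of 476 nt. Library 4 was the highest, although that library had the fewest miRNA and Gas5 reads. Snhg5, the host of Snord50a and Snord50b on chromosome 9 at 88521052 to 88522897, measured 0.0387, 0.0481, 0.0826 and 0.165 TPM, from 10, 10, 16 and 18 reads at 1011 nt. Snhg6, the host of Snord87 on chromosome 1 at 9942025 to 9944118, measured 0.0673, 0.0478, 0.0384 and 0.296 TPM, from 7, 4, 3 and 13 reads at 407 nt. Both were again highest in library 4, and for Snhg6 the other 3 libraries lay close together.

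Among the hosts of box H/ACA snoRNAs, Snhg8, on chromosome 3 at 123507552 to 123508336, carries Snora24. It measured 0.0249, 0.0310, 0.0930 and 0.189 TPM, from 5, 5, 14 and 16 reads at 785 nt. Snhg12, on chromosome 4 at 132308678 to 132311024, carries Snora16a, Snora44, Snora61 and the box C/D Snord99, and was at 0.0387, 0, 0.0172 and 0.0306 TPM, from 3, 0, 1 and 1 reads at 303 nt. At this smallest length the counts were at or under 3 reads, the limit that a count of 0 allows, in every library. At 2121 nt, the largest multiple within the gene, Snhg12 would have 35 reads in all. Snhg4, known as the host of Snora74a, was at 0.0204, 0.00423, 0.00906 and 0.0242 TPM, from 6, 1, 2 and 3 reads at 1151 nt, and Epb41l4aos, which carries 1 snoRNA, at 0.00903, 0, 0.0241 and 0 TPM, from 1, 0, 2 and 0 reads at 433 nt. Snhg3, the host of Snora73a and Snora73b, whose product U17 takes part in the processing of ribosomal RNA, was listed at 0 in all 4 libraries. For its shortest GENCODE transcript, of 332 nt, a count of 0 allows up to 0.0353, 0.0440, 0.0471 and 0.0838 TPM in libraries 1 to 4.

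In order of mean level the hosts were Gas5, Snhg1, Snhg6, Snhg8, Snhg5, Snhg12, Snhg4, Epb41l4aos and Snhg3. Gas5 was above Snhg1 in 4 of 4 libraries with no overlap. The ranges of all other neighbours overlapped, and their means differed by less than the larger of the 2 SDs, except Snhg5 and Snhg12, at 0.0836 ± 0.0575 and 0.0216 ± 0.0169 TPM (SD, n = 4), where Snhg5 was higher in 3 of 4 libraries. At this depth the order below Gas5 was not resolved. It also changed without library 4, when Snhg5, at 0.0564 TPM, came before Snhg6 at 0.0512 and Snhg8 at 0.0496 TPM. Snhg1 stayed next after Gas5, at 0.0896 TPM without library 4 against 0.155 TPM with it. For Snhg1, Snhg4, Snhg6, Snhg12 and Epb41l4aos the lengths and reads are minimum values, since a multiple of the length that fits within the gene also gives whole reads. Snhg4, Snhg12 and Epb41l4aos had 12, 5 and 3 reads in all. With so few reads the search can also miss the true length and its divisors. For Snhg5 and Snhg8 no larger multiple fits, and Snhg3 has no length. The 8 lower hosts had 186 reads in all at the smallest lengths and 543 at the largest multiples, against 10556542 for Gas5.

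Of the 7 lower hosts above 0, 5 were highest in library 4 (Snhg1, Snhg4, Snhg5, Snhg6 and Snhg8). This was not particular to them. Library 4 was also the highest for 54.1% of the 318 rows with a mean in the same range, for 32.6% of all 1931 rows above 0 and for 38.7% of the long noncoding RNA rows above 0. Being above 0 in all 4 libraries held for 6 of the 9 hosts and for 10.4% of the long noncoding RNA rows. Gas5 went the other way, with its lowest level in library 4.

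The lengths of the lower hosts were compared with annotated transcripts in the same way, with the same limit that a length does not identify the counted model. The lengths found for Snhg1, Snhg5, Snhg6 and Epb41l4aos were within 10 nt of 1 GENCODE transcript each, and 0 of those transcripts contained a whole snoRNA. The length of Epb41l4aos rests on 3 reads in all and is uncertain. Snhg1 resembles Gas5 in that 11 of its 18 GENCODE transcripts do contain one, yet the transcript nearest to its length has none. For Snhg8 and Gas5, the GENCODE transcript within 10 nt of the length found contained a whole snoRNA, but in neither case were the lengths equal. The Snhg8 length of 785 nt equals the whole RefSeq span of the gene, which contains Snora24. Snhg8 had 16 reads or fewer in each library. Whether a snoRNA within the counted model bears on the level of a host was not tested. Snora24 has a RefSeq record of its own, and the sources do not state how reads in overlapping genes were assigned. For Snhg12 the length could be a multiple of 303 nt, and transcripts near such multiples contain up to 3 of its 4 snoRNAs, so its model was not resolved. Snhg4, without a GENCODE model, and Snhg3, without reads, could not be compared.

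Across the table, 1661 of the 1840 long noncoding RNA rows had a GENCODE model (the plot of rows ranked by level). In 16 of them an exon of at least 1 transcript contained a whole snoRNA, and 4 of these 16 (Gas5, Rian, Rab26os and Snhg1) had a mean of 0.1 TPM or more. The same held for 1 of 13 rows with snoRNAs in introns alone, Snhg6, and for 20 of 1632 rows (1.23%) without a snoRNA. The median of the mean levels was 0.0285, 0.00460 and 0.00115 TPM in these 3 classes. Of the 9 members, 8 lie in the first 2 classes, Gas5, Snhg1, Snhg5, Snhg8 and Snhg12 with snoRNAs in annotated exons and Snhg3, Snhg6 and Epb41l4aos with snoRNAs in introns alone, so these classes are no independent evidence. Snhg4 has no GENCODE model and is in none of the 3 classes. The same holds for 5730408K05Rik, whose RefSeq span contains Snora57 and whose mean was 23.7 TPM.

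**Figure D4:**
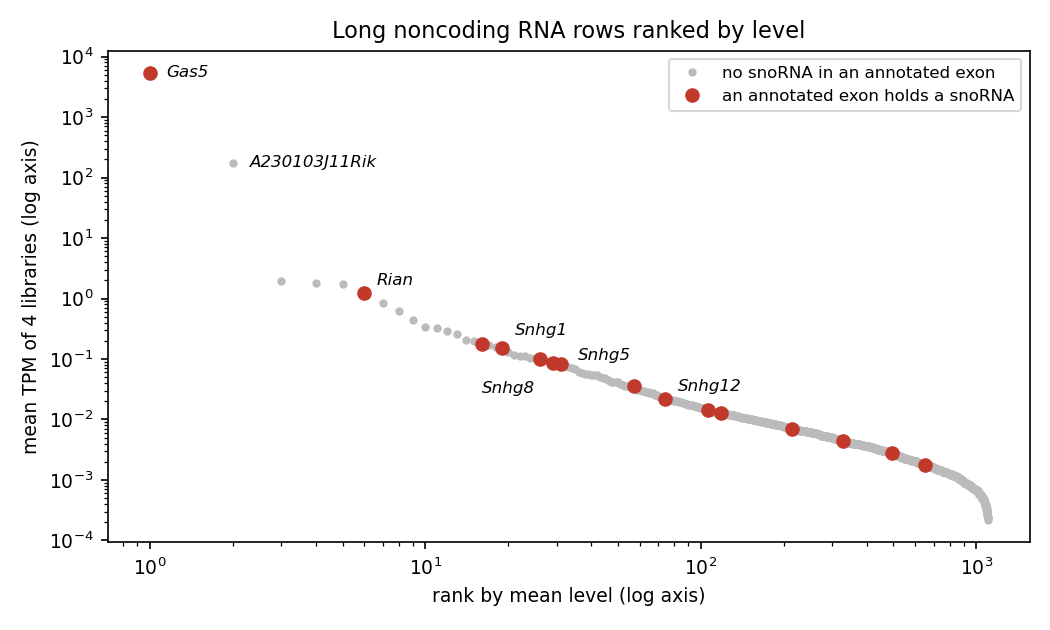
Mean TPM of 4 libraries against rank (both log axes) for the long noncoding RNA rows above 0 that have a GENCODE model, with rows whose annotated exons contain a whole snoRNA in red. Gas5 is first at 5341 TPM, A230103J11Rik second at 173 TPM, and Snhg1, Snhg5, Snhg8 and Snhg12 lie at 0.155 TPM or lower.

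Other snoRNA hosts taken by name were low too. The names did not include 5730408K05Rik, whose RefSeq span contains Snora57, with strand not compared. That row was at 2.79, 1.86, 5.13 and 85.0 TPM in libraries 1 to 4. Of 16 further host names, 13 had a row, and 0 of these reached 1 TPM in all libraries. The median of their means was 0.0165 TPM, against 0.0526 TPM for the 8 lower members and 0.00137 TPM for all rows. The highest was Rian, a maternally expressed host of box C/D snoRNAs in the Dlk1-Dio3 imprinted region, at 1.73, 1.13, 0.642 and 1.40 TPM in libraries 1 to 4. Its mean was 1.23 ± 0.462 TPM (SD, n = 4), at a counted length of 3584 nt. Annotated exons of Rian contain 8 snoRNAs. That length was not compared with its transcripts, so whether the counted model contains any of them is not known. The next highest means were 0.0997 TPM for 1110038B12Rik, 0.0960 for 2410006H16Rik and 0.0841 for Snhg7. Of 32 long RNAs not known as snoRNA hosts, 26 had a row and 0 reached 1 TPM in all libraries. Their median was 0.00967 TPM, led by H19, an imprinted long RNA, at 0.442 ± 0.358, Malat1, an abundant nuclear RNA, at 0.327 ± 0.200, Norad at 0.112 ± 0.0879 and Mirg at 0.0561 ± 0.0469 TPM (SD, n = 4). By contrast, all 9 scaRNAs with a row, the relatives of snoRNAs that act in Cajal bodies, reached 1 TPM in every library, with a median of 14.8 TPM and the highest, Scarna17, at 87.4 ± 21.0 TPM (SD, n = 4). All scaRNAs were far below Gas5.

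Gas5 was among the steadiest rows. Its coefficient of variation over the 4 libraries was 22.8%, against a median of 58.8% for the 170 miRNA genes with a mean of at least 10 TPM. Of the 182 rows at that level other than Gas5, 1, Scarna9, varied less, at 11.5%. Among other rows that are not miRNA genes, A230103J11Rik, at 173 ± 40.7 TPM, and Scarna17, at 87.4 ± 21.0 TPM, varied little more than Gas5. Scarna3a, at 55.5 ± 28.3 TPM, varied more (SD, n = 4). Likeness to Gas5 was measured as the SD over the 4 libraries of the log2 ratio of TPM + 1 to that of Gas5. The 5 most alike rows were Mir677 and Mir200b, each with an SD of 0.277, Mir1a-1 at 0.285, A230103J11Rik at 0.303 and Mir126a at 0.309. They include 1 marker each of epithelium (Mir200b), striated muscle (Mir1a-1) and endothelium (Mir126a). Mir1a-1, at 13.1, 7.58, 13.2 and 7.59 TPM in libraries 1 to 4, does not stand for its list. The striated muscle markers summed to 341, 129, 119 and 224 TPM, lowest in library 3, where Gas5 was highest. These names depended on single libraries. When each library was left out in turn, between 0 and 4 of the 5 names stayed, with 4 of them without library 1 and none without library 2.

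The libraries were checked for other cell types with miRNA markers. Stromal markers (miR-199, miR-214, miR-143 and miR-145 genes, 6 of 6 with a row) summed to 1894, 2373, 1444 and 331 TPM in libraries 1 to 4. Of these, Mir199a-2 and Mir214 were listed at 0. Epithelial markers (miR-200 family and Mir205, 6 of 6) summed to 73.8, 46.3, 157 and 43.5 TPM. Nerve cell markers (miR-9, miR-124 and miR-219 genes, 8 of 8, with Mir124a-1 at 0) summed to 350, 37.3, 3081 and 97.8 TPM. Endothelium (Mir126a) was at 280, 436, 528 and 251 TPM. Library 3, where Gas5 was highest, also had the highest sums of nerve, epithelial and endothelial markers. Library 4, where Gas5 was lowest, had the lowest epithelial and endothelial sums. Stromal markers were highest in library 2 and lowest in library 4, with library 3 below libraries 1 and 2. All miRNA genes together were also lowest in library 4, at 16399 TPM against 42494, 65478 and 61707 TPM in libraries 1 to 3. Low marker sums in library 4 are therefore not particular to these cell types. Red blood cell markers (3 of 3 with a row, Mir486 at 0) and white blood cell markers (3 of 4, Mir223 at 0) were low, at 0.878 to 11.9 and 3.60 to 8.71 TPM, and also highest in library 3. Striated muscle markers (5 of 5, Mir1a-2 at 0) summed to 341, 129, 119 and 224 TPM, highest in library 1 and lowest in library 3. The liver marker Mir122 was at 91.8, 23.5, 51.7 and 143 TPM, highest in library 4, where Gas5 was lowest. The part of these cell types in the Gas5 level was not tested.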

How the data were processed

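Per the labels' protocols, sorted cells went into a lysis reagent, total RNA was extracted with a kit that keeps small RNA, and small RNA libraries were sequenced as 75 bp reads. The authors deposited TPM values, with genes named by Entrez ID. The submitters' processing notes name mm10 (GRCm38) and limma. Aligner, counter, annotation and strand setting: not given in the sources used here. Depending on the library, rows in the table account for 2.33% to 7.22% of the sum to which TPM is set.

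Rows were matched by gene ID to RefSeq GRCm38.p6 (2541 of 2976), and gene models and snoRNAs came from GENCODE vM21. Lengths from 20 nt up to the RefSeq span (20000 nt without one) were tried, with 0.001 read as the tolerance. Among miRNA genes with at least 100 reads this gave the RefSeq length for 245 of 254 and a divisor of it for the rest, and a length was found for 1489 of 1491 other rows above 0. The search was tested on simulated data. At a mean of 3 reads per library it gave the true length for 88.0% of 50 genes. The true length or a divisor of it was given for 90.0%. At 30 reads these shares were 96.0% and 100%. No count model was fitted. Recovered reads, summed over the rows of the table and not over the whole library, ranged from 1386867 to 4579470 per library. No molecular identifiers are mentioned, so intervals and limits cover counting error only.

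The members and lists were chosen with earlier results of these data known. The text names all members, up to 4 leading genes of each other list, the rows next to Gas5 by mean TPM or, within a library, by reads, and the 5 rows most like Gas5. Alternatives covered the pseudocount, the detection level, filters, the median, undivided reads and leaving out each library. The tools were matplotlib 3.10.9, scipy 1.17.1, numpy 2.4.6, pandas 2.3.3 and Python 3.11.15.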

Additional observations from a re-analysis of the deposited data

Results flagged for a closer look

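Snhg6 measured 0.296 TPM in library 4, from 13 reads, against 0.0384 to 0.0673 TPM in the other libraries, and its gap to the nearest of them was 0.888 of the whole range, above Dixon's 95% critical value for 4 values. Of 12 sets of 4 values examined in this way (the 8 hosts above 0, their summed level without Gas5, and 3 shares or ratios of Gas5), 1 was singled out, and chance singles out about 1 in 20.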

How the results depend on the processing

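The shares of the table taken by Gas5 and by all members summed rested on the scale. Each was 11.3% by TPM and 76.0% by recovered reads not divided by length. The log2 ratio of the other members' sum to Gas5 was -11.83 with a pseudocount of 1 TPM, -13.35 with 0.1 and -8.97 with 10. From reads at the smallest lengths found it was -15.72. The sum was always below Gas5. Of the 5 rows most like Gas5, 0 stayed with a filter of 1 TPM, 2 with 100 TPM, and 0 to 4 with 1 library left out. With rows under 0.1 TPM left out, list medians were 0.155 TPM over 3 members, 1.23 for the 1 other host left, Rian, and 0.327 over 3 other long RNAs, values that the filter on level itself raises. The number of detected members was 1 at 0.1, 1 and 10 TPM and without any 1 library, and the mean Gas5 level stayed within 1 SD in every setting run. No paired analysis was possible because the libraries form 1 group. Counting limits the order of the hosts below Gas5.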

Other observations

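A230103J11Rik, a long noncoding RNA with no annotated snoRNA in its span, was the second highest long RNA, at 207, 180, 191 and 114 TPM in libraries 1 to 4, from 112429, 78490, 77674 and 26162 reads at a counted length of 2125 nt. It was lowest in library 4, as Gas5 was. The third highest, 5730408K05Rik, was uneven, at 2.79, 1.86, 5.13 and 85.0 TPM. Its counted length of 384 nt equals its RefSeq span, and that span contains Snora57, a box H/ACA snoRNA, with strand not compared. Both rows were chosen after their values were seen.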
